A study of Mus musculus with 8 samples.

Results

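The genes described here are blood niche factors and their receptors, 10 of the 32285 genes listed in the count matrices of mouse periosteum. They were chosen by symbol and not by a measured value: the chemokine Cxcl12 with its receptors Cxcr4 and Ackr3, stem cell factor Kitl with its receptor Kit, interleukin-7 (Il7) with its receptor chain Il7r, the Tie2 ligand Angpt1, the adhesion molecule Vcam1 and the leptin receptor Lepr. All 10 symbols occurred once and were detected in both libraries. In bone marrow, perivascular stromal cells and endothelium secrete CXCL12 and SCF, which hold hematopoietic stem and progenitor cells in place and keep them alive through CXCR4 and KIT, while IL-7 from the same stroma sustains early B cells. ACKR3 binds CXCL12 without G-protein signaling and takes it up, and leptin receptor marks the CXCL12-abundant reticular cells of adult marrow. The periosteum is the connective tissue sheath of the outer bone surface, and cells washed from dissected bones can include marrow and blood cells.

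Cells came from the left femurs and tibias of C57BL/6J male mice aged 16 weeks, which were kept from 4 weeks of age on normal diet (ND) chow or on high-fat diet (HFD) chow with 60% of calories from fat. The labels name 4 ND and 4 HFD mice, all wild type, but the counts form 1 pooled library per diet, and no barcode could be assigned to a mouse. Each diet is therefore 1 sample, no test between diets was possible, and every interval below is a 95% interval that covers counting error only, with the spread between mice unknown. The ND library held 48558889 UMIs (unique molecular identifiers, each counted as 1 captured transcript) in 6314 barcodes, of which 6029 passed the filters, and the HFD library 49940976 UMIs in 6636 barcodes, of which 6224 passed. Median depth was 4610 and 4823.5 UMIs per kept cell, and 15 barcodes occurred in both libraries.

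Clustering without the 10 genes gave 29 clusters. Of these, 26 formed 16 classes named by their markers, and 3 clusters with 324 ND and 296 HFD cells stayed unnamed. The stromal classes were mesenchymal-like (410 ND and 668 HFD cells), endothelial-like (117 and 230) and pericyte-like (31 and 59). Levels are UMIs of the gene per 1000000 UMIs of the class, written UPM, and were compared between classes for 1 gene at a time, because transcripts of different genes are not captured alike. As a measure of free RNA, the mature neutrophil-like class (1502 ND and 1465 HFD cells, median 3210.5 and 3275 UMIs) was used for every gene except Cxcr4, for which the mesenchymal-like class (median 10653 and 9526 UMIs) was used. RNA of neutrophils was present in the stromal classes of both libraries, as given beside the results it touches.

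Cxcl12 (chr6:117168535-117181368, mm10) was a stromal transcript. Stromal classes held 95.8% of its 3021 UMIs in ND and 93.3% of its 5185 in HFD. Endothelial-like cells had the highest level, 1928 UPM (1816 to 2044) in ND and 1963 UPM (1881 to 2047) in HFD, followed by mesenchymal-like cells with 365 UPM (348 to 382) and 370 UPM (355 to 384). Pericyte-like cells came next with 108 UPM (74.6 to 150) and 176 UPM (143 to 214), and none of these 3 neighbours overlapped in its interval in either library. Mature neutrophil-like cells showed 5.39 and 5.62 UPM. A Cxcl12 UMI was found in 82.9% of ND endothelial-like cells (74.8 to 89.2%) and in 86.5% of HFD ones (81.4 to 90.7%), against 1.66% and 1.64% of mature neutrophil-like cells. With every cell thinned to 1000 UMIs the shares were 63.7% and 68.5% against 0.467% and 0.478%.

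Among mesenchymal-like cells 52.4% in ND (47.5 to 57.4%) and 56.1% in HFD (52.3 to 59.9%) had a Cxcl12 UMI, 18.3% and 21.7% after thinning. The class was larger in UMIs than the endothelial-like class, so it still supplied 57.8% of all Cxcl12 UMIs in ND and 49.6% in HFD, with 36.8% and 41.9% from endothelial-like cells.

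Cxcr4 (chr1:128588199-128592299), the G-protein-coupled receptor through which CXCL12 attracts and retains blood cells, showed the opposite distribution. Blood classes held 94.4% of its UMIs in ND and 93.7% in HFD. Mature neutrophil-like cells were highest with 549 UPM (529 to 569) in ND and 532 UPM (512 to 552) in HFD. In ND mature B-like cells followed with 354 UPM (337 to 371), monocyte-like cells with 320 UPM (304 to 337), basophil/mast-like cells with 311 UPM (266 to 361) and B precursor-like cells with 299 UPM (279 to 319), and from monocyte-like cells down to B precursor-like cells each interval overlapped the next. In HFD the basophil/mast-like, mature B-like and B precursor-like classes had 344, 328 and 311 UPM, and monocyte-like cells stood lower at 196 UPM (183 to 209). Immature neutrophil-like cells and granulocyte-monocyte progenitor-like cells were low among blood cells, with 102 and 72.8 UPM in ND and 64.9 and 50.2 UPM in HFD.

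Neutrophils therefore ran from low to high Cxcr4 along their maturation, with intermediate neutrophil-like cells between the others at 263 UPM (248 to 278) in ND and 149 UPM (138 to 161) in HFD. Thinned to 1000 UMIs, 40.7% of mature neutrophil-like cells in ND and 41.2% in HFD had a Cxcr4 UMI, compared with 1.71% and 1.36% of mesenchymal-like cells. Before thinning these shares were 73.5% and 72.2% against 15.4% and 8.38%. Mesenchymal-like cells had 29.8 and 16.7 UPM, taken here as the level of free RNA and neighbouring cells.

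Ackr3 (chr1:90203980-90215724), the scavenging receptor of CXCL12, was again stromal, so that its uptake receptor lay in the same classes as Cxcl12 while Cxcr4 lay in blood classes. Mesenchymal-like cells held 91.0% of its UMIs in ND and 90.4% in HFD, at 372 UPM (355 to 390) and 265 UPM (253 to 278). Endothelial-like cells had 104 UPM (79.3 to 134) and 88.6 UPM (71.9 to 108). Pericyte-like cells had 47.5 UPM in ND and 14.2 UPM in HFD from 15 and 8 UMIs, and mature neutrophil-like cells 0.962 and 1.36 UPM. An Ackr3 UMI was present in 54.6% of ND mesenchymal-like cells (49.7 to 59.5%) and in 44.9% of HFD ones (41.1 to 48.8%), or 22.0% and 18.3% after thinning, against 0.333% and 0.341% of mature neutrophil-like cells (0.2% and 0.0683% thinned).

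**Figure D1:**
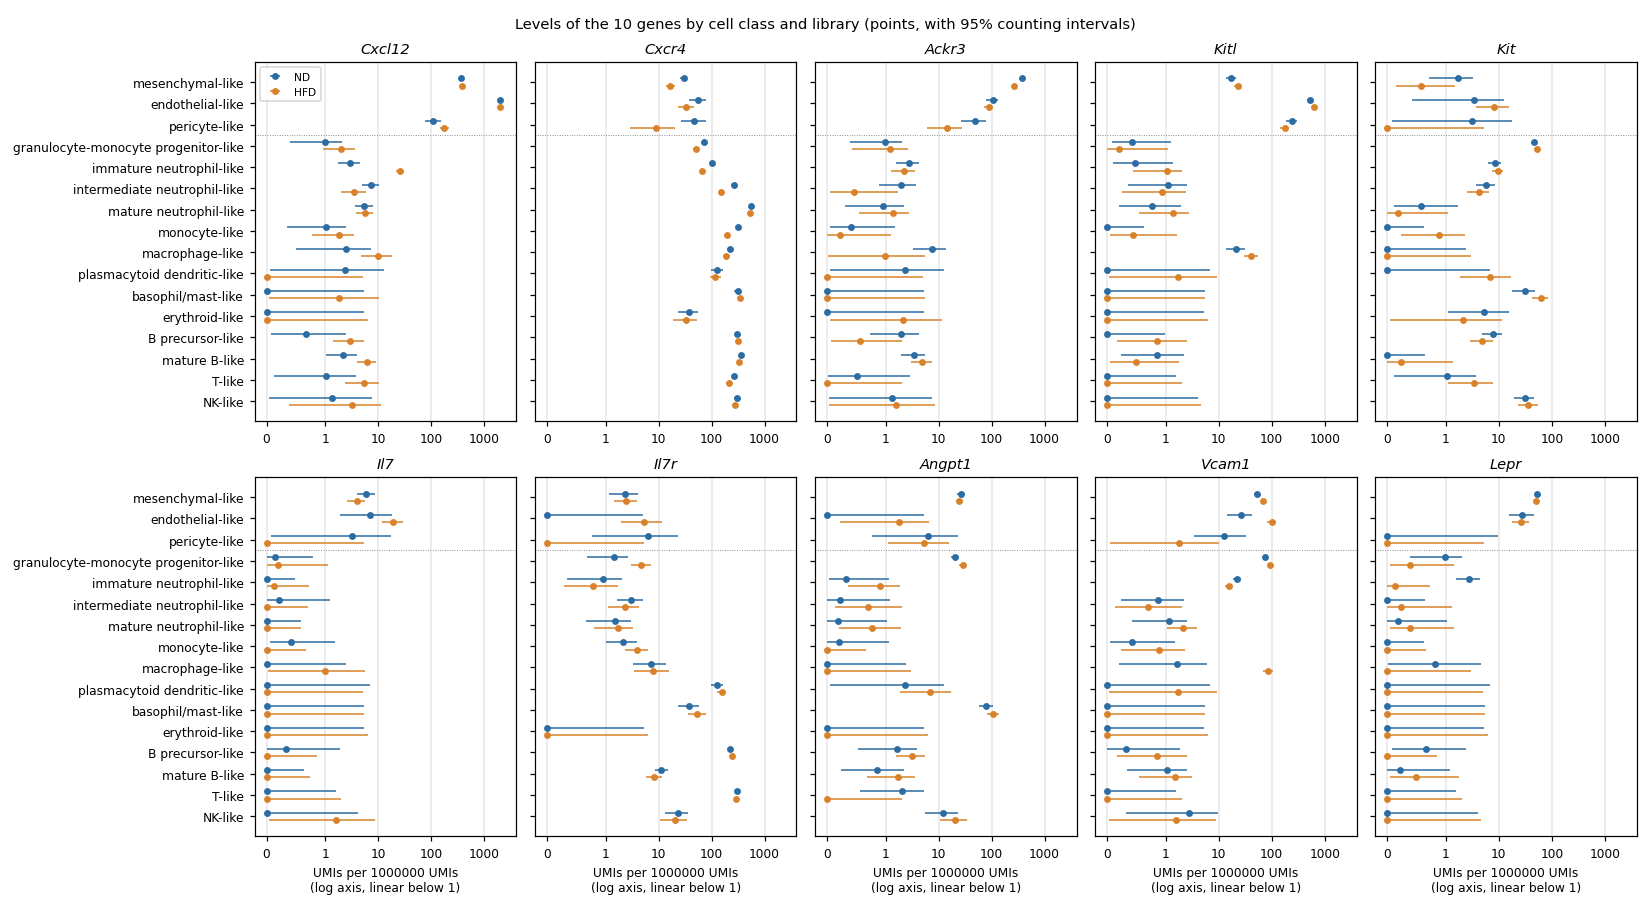
Levels of the 10 genes (x axis, UMIs per 1000000 UMIs of the class, logarithmic and linear below 1) in 16 classes (y axis, stromal classes above the dotted line) in the ND and HFD libraries, with 95% counting intervals. Cxcl12, Ackr3, Kitl, Il7 and Lepr are highest in stromal classes, with Cxcl12 at 1928 and 1963 UPM in endothelial-like cells, whereas Cxcr4 peaks at 549 and 532 UPM in mature neutrophil-like cells.

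Kitl (chr10:100015615-100100416), the ligand that supports progenitors and mast cells through KIT, came mostly from the vessel wall. Endothelial-like cells had 525 UPM (467 to 587) in ND and 637 UPM (591 to 686) in HFD, and pericyte-like cells 238 UPM (187 to 298) and 178 UPM (144 to 216). Both stood above macrophage-like cells, at 21.2 and 40.9 UPM, and mesenchymal-like cells, at 17.3 UPM (13.8 to 21.5) and 22.6 UPM (19.2 to 26.4). Endothelial-like cells alone held 58.0% of Kitl UMIs in ND and 67.9% in HFD, whereas the mesenchymal-like class held 15.9% and 15.1%. Kitl was seen in 70.1% of ND endothelial-like cells (60.9 to 78.2%) and 78.3% of HFD ones (72.4 to 83.4%), or 41.6% and 51.4% thinned, against 0.266% and 0.478% of mature neutrophil-like cells, none of them after thinning (0 of 1500 and 0 of 1464 cells).

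Kit (chr5:75574987-75656722), the receptor tyrosine kinase of progenitors and mast cells, was detected at low levels. Granulocyte-monocyte progenitor-like cells had 46.5 UPM (41.6 to 51.85) in ND and 51.4 UPM (45.3 to 58.0) in HFD and held 64.5% and 55.0% of its UMIs. Basophil/mast-like cells had 30.6 UPM (17.8 to 48.9) and 61.5 UPM (42.6 to 86.0), and NK-like cells 30.9 UPM (19.6 to 46.4) and 35.9 UPM (22.8 to 53.9). Intervals of these 3 classes overlapped their neighbours in both libraries, so their order was not fixed by the counts. Kit was found in 55.0% of ND progenitor-like cells (48.5 to 61.4%) and 51.3% of HFD ones (44.1 to 58.4%), whose median depth was 30738 and 26314 UMIs. After thinning the share was 6.30% and 6.22%, and in mature neutrophil-like cells it was 0 of 1500 and 1 of 1464 cells (3 and 1 cells unthinned).

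Il7 (chr3:7572028-7613760), the survival factor of early B and T cells, was near the limit of detection. It had 41 UMIs in 31 ND cells and 53 UMIs in 34 HFD cells. Mesenchymal-like cells gave 28 UMIs in 19 ND cells, or 5.84 UPM (3.88 to 8.45), and 27 UMIs in 22 HFD cells, or 3.88 UPM (2.56 to 5.65). Endothelial-like cells gave 4 UMIs, or 6.93 UPM (1.89 to 17.7), in ND and 21 UMIs in 7 cells, or 19.0 UPM (11.8 to 29.02), in HFD. Stromal classes held 80.5% and 90.6% of the Il7 UMIs. No Il7 UMI was found in mature neutrophil-like cells, which allows 0.577 UPM in ND and 0.581 UPM in HFD.

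Il7r (chr15:9506159-9529941) was by contrast well measured, with 1539 UMIs in ND and 1619 in HFD. T-like cells had 306 UPM (281 to 331) and 292 UPM (265 to 321). B precursor-like cells had 226 UPM (210 to 244) and 244 UPM (228 to 261), and plasmacytoid dendritic-like cells 128 UPM (97.0 to 167) and 155 UPM (125 to 190). Neighbouring classes in this order did not overlap in either library. Basophil/mast-like cells had 37.8 and 54.3 UPM, while mature B-like cells were at 11.4 and 8.30 UPM and mature neutrophil-like cells at 1.54 and 1.74 UPM.

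An Il7r UMI was seen in 63.8% of ND (58.6 to 68.7%) and 61.8% of HFD (57.2 to 66.3%) B precursor-like cells, which had a median of 4333 and 4217.5 UMIs, against 0.266% and 0.546% of mature neutrophil-like cells. After thinning these were 21.3% and 24.2% against 0.133% and 0.205%. Within the B lineage the 3 precursor clusters differed in their receptors. The cluster led by Vpreb3, Ebf1 and Ly6d had 559 UPM of Cxcr4 in ND and 602 in HFD with 288 and 315 UPM of Il7r. In the cluster with histone and mitotic genes (Pclaf, Hist1h1b, Ube2c) Cxcr4 was 217 and 203 UPM and Il7r 190 and 204 UPM. Cells led by Vpreb1 and Igll1, the surrogate light chain of early B cells, and Dntt, which adds nucleotides at joined receptor segments, had Cxcr4 at 201 and 141 UPM, Il7r at 329 and 272 UPM and the highest Kit of the 3 clusters, 29.2 and 25.7 UPM from 8 and 10 UMIs. Kit was at 7.0 and 2.8 UPM in the mitotic cluster and at 1.4 and 0.99 UPM in the Vpreb3 cluster.

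Angpt1 (chr15:42424667-42676977), the ligand of the endothelial receptor TIE2, was not mainly stromal. Basophil/mast-like cells had the highest level, 79.1 UPM (57.5 to 106) in ND and 107 UPM (81.3 to 138) in HFD, from 44 and 59 UMIs. Mesenchymal-like cells had 26.9 UPM (22.5 to 32.0) and 24.5 UPM (20.9 to 28.4), and granulocyte-monocyte progenitor-like cells 20.7 UPM (17.4 to 24.3) and 29.2 UPM (24.6 to 34.3), each of these pairs overlapping. Stromal classes held 36.7% of Angpt1 UMIs in ND and 40.0% in HFD. It was present in 35.4% of ND basophil/mast-like cells (22.2 to 50.5%) and 39.6% of HFD ones (26.5 to 54.0%), which had a median of 7532 and 6479 UMIs, and in 0.0666% and 0.137% of mature neutrophil-like cells. Thinned, the shares were 4.17% and 5.66% against 0.0667% and 0.0683%.

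Vcam1 (chr3:116110020-116129688), which binds the integrin VLA-4 on blood cells, was likewise divided between blood and stroma. Granulocyte-monocyte progenitor-like cells had 76.0 UPM (69.7 to 82.7) in ND and 94.0 UPM (85.7 to 103) in HFD. In mesenchymal-like cells it was at 53.2 UPM (46.9 to 60.2) and 68.75 UPM (62.7 to 75.2), in endothelial-like cells at 26.0 UPM (14.5 to 42.9) and 99.4 UPM (81.7 to 120), and in immature neutrophil-like cells at 22.0 UPM (18.5 to 26.0) and 15.7 UPM (13.1 to 18.8). Macrophage-like cells had 1.63 UPM in ND and 85.7 UPM in HFD, but 82 of the 86 HFD UMIs came from 1 cell. In HFD the endothelial-like class was highest, its interval overlapping that of the progenitor-like class. An unnamed cluster of shallow cells with Ebf1 among its leading genes (212 ND and 161 HFD cells, median 1446 UMIs) stood above all named classes in HFD, with Vcam1 at 44.6 UPM (26.9 to 69.7) in ND and 333 UPM (278 to 396) in HFD, from 19 and 129 UMIs, a log2 ratio of 2.87 (2.20 to 3.68).

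Lepr (chr4:101717137-101815352) was found almost wholly in mesenchymal-like cells. Mesenchymal-like cells had 53.4 UPM (47.1 to 60.4) in ND and 50.6 UPM (45.5 to 56.2) in HFD and held 85.0% and 90.0% of its UMIs. Endothelial-like cells followed with 27.7 UPM (15.8 to 45.0) and 26.2 UPM (17.6 to 37.7), from 16 and 29 UMIs. All other classes had 17 UMIs or fewer, the 17 in ND immature neutrophil-like cells with 13 in 1 cell, and mature neutrophil-like cells 0.192 and 0.387 UPM. A Lepr UMI was found in 95 of 410 ND mesenchymal-like cells, 23.2% (19.2 to 27.6%), and in 132 of 668 HFD ones, 19.8% (16.8 to 23.0%), against 0.0666% and 0.137% of mature neutrophil-like cells. After thinning the shares were 4.39% and 4.68% against 0.0667% and 0.0683%.

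Mesenchymal-like cells were clustered again, without the 10 genes, into 8 sub-clusters, which differed widely in niche factors. Among the named sub-clusters, fibroblast-like cells marked by Ccl11 and Col15a1 (96 ND and 161 HFD cells) carried most niche factors together. Over both libraries they had 862 UPM of Cxcl12, 265 of Ackr3, 114 of Vcam1, 75.4 of Lepr, 44.5 of Angpt1 and 38.8 of Kitl. In each library 1 cell held much of the Cxcl12, 344 of 1136 UMIs in ND and 185 of 1264 in HFD. The same cell held 18 of 41 Kitl UMIs in ND and 12 of 67 in HFD. Fibroblast-like cells marked by Pi16 and Dpp4 (92 and 106 cells), genes of a layer described as progenitor fibroblasts in several tissues, had the highest Ackr3 at 846 UPM with Cxcl12 at 117 UPM and Vcam1 at 9.93 UPM. Tenocyte-like cells (89 and 123 cells) had Lepr at 84.3 UPM but Cxcl12 at 46.0 UPM. In osteogenic-like cells (59 and 128 cells), marked by Ibsp, Bglap and Alpl, Cxcl12 was 255 UPM and Vcam1 119 UPM, whereas Lepr was 9.67 UPM and Ackr3 17.5 UPM. Chondrocyte-like cells (15 and 53 cells) had Lepr at 62.7 UPM and no Il7 UMI.

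Of the 3 unnamed sub-clusters, a shallow one (21 and 53 cells, median 2039 UMIs per cell) had Cxcl12 at 1568 UPM. Of its 242 HFD Cxcl12 UMIs, 178 lay in 1 cell. It also had Lepr at 113 UPM in ND and 107 UPM in HFD, from 6 and 14 UMIs. Ackr3 was 265 and 336 UPM there, Vcam1 416 and 61.2 UPM and Angpt1 132 and 45.9 UPM, while Kitl gave 0 and 1 UMIs. The smallest, led by Prg4 and F13a1 (5 and 14 cells), had Cxcl12 at 1360 UPM and no Lepr UMI. The last one was led by neutrophil genes such as Ngp and Retnlg (33 and 30 cells) and had Cxcr4 at 109 UPM, while Cxcr4 lay between 7.45 and 32.7 UPM in the other sub-clusters. Lepr was thus high in sub-clusters with high and with low Cxcl12. No sub-cluster met the marker list for marrow adipogenic stromal cells (Adipoq, Lpl, Foxc1, Ebf3, Grem1, Cebpa and Pparg).

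**Figure D2:**
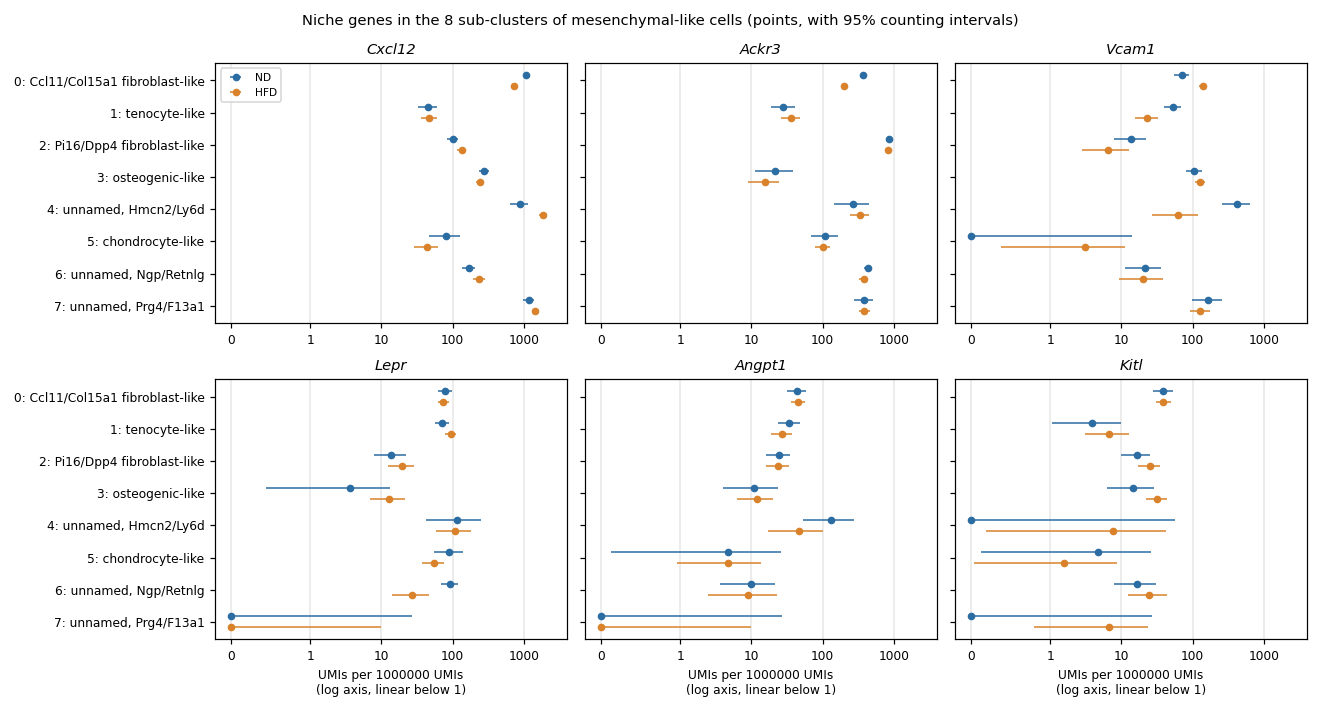
Cxcl12, Ackr3, Vcam1, Lepr, Angpt1 and Kitl (x axes, UMIs per 1000000 UMIs, logarithmic and linear below 1) in the 8 sub-clusters of mesenchymal-like cells (y axis) in ND and HFD, with 95% counting intervals. Ackr3 is highest in the Pi16/Dpp4 fibroblast-like cells (860 UPM in ND, 832 in HFD), and Lepr is high in tenocyte-like cells (71.8 and 93.9 UPM), where Cxcl12 is low (44.7 and 47.0 UPM).

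Exactly 1 mesenchymal-like cell in each library had at least 5 UMIs of Adipoq, the adipokine that marks CXCL12-abundant reticular cells, and these 2 cells were singled out after their values were seen. The ND cell (14178 UMIs) held 344 UMIs of Cxcl12, 18 of Kitl, 4 of Il7, 5 of Angpt1, 20 of Vcam1 and 7 of Lepr, with 8 of Adipoq, 23 of Lpl and 18 of Grem1. The HFD cell (12049 UMIs) held 185 UMIs of Cxcl12, 12 of Kitl, 5 of Il7, 4 of Angpt1, 16 of Vcam1 and 2 of Lepr, with 43 of Adipoq, 8 of Lpl and 1 of Grem1. Both had no UMI of Ackr3 or Cxcr4, and the collagen gene Col1a1 gave 0 and 2 UMIs. The cells differed in the mesenchymal marker Pdgfra, with 1 UMI in ND and 28 in HFD, while Foxc1 gave 2 and 0 and Ebf3 6 in each. In both libraries this cell had more UMIs of Cxcl12, Kitl and Il7 than any other mesenchymal-like cell, the next having 145 and 178 UMIs of Cxcl12 and 4 and 10 of Kitl.

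This 1 cell held 19.7% of the mesenchymal-like Cxcl12 UMIs in ND and 7.20% in HFD, 21.7% and 7.64% of Kitl, 14.3% and 18.5% of Il7, and 7.84% and 3.35% of Vcam1. Without it the mesenchymal-like level of Cxcl12 was 294 UPM in ND and 344 UPM in HFD, and that of Kitl 13.6 and 20.9 UPM. Both cells were also among the 5% of cells with the highest doublet scores of their library, and whether they were doublets was not tested.

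**Figure D3:**
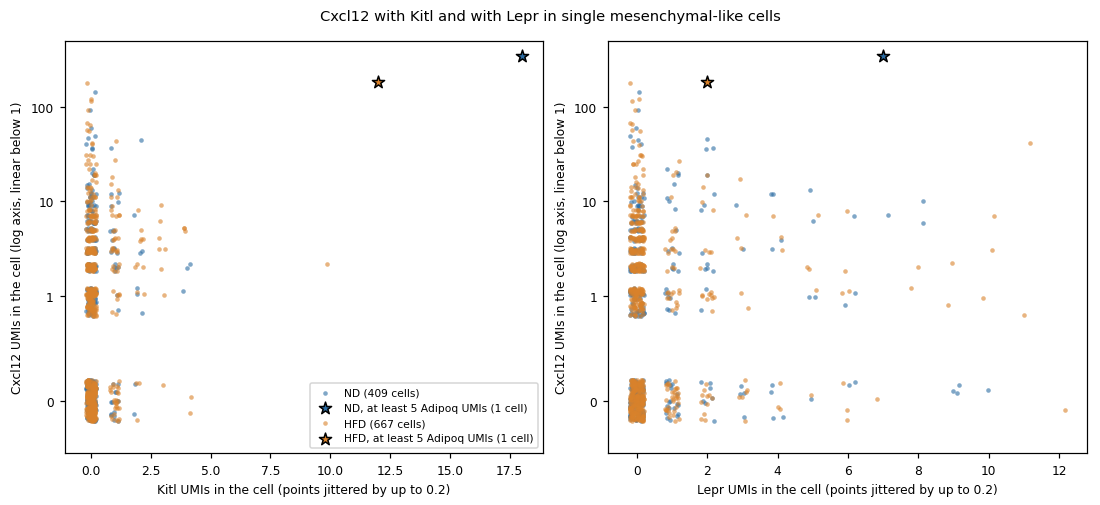
Cxcl12 UMIs (y axes, logarithmic and linear below 1) against Kitl UMIs (left x axis) and Lepr UMIs (right x axis) in single mesenchymal-like cells of ND and HFD, points jittered by up to 0.2. Stars mark the 1 cell per library with at least 5 Adipoq UMIs, which lie at 344 and 185 Cxcl12 UMIs and at 18 and 12 Kitl UMIs.

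Lepr-positive cells were therefore compared with the other mesenchymal-like cells of the same library. In ND, cells with a Lepr UMI had 604 UPM of Cxcl12 and those without 280 UPM, a log2 ratio of 1.11 (0.97 to 1.25). In HFD the values were 358 and 373 UPM, a ratio of -0.05 (-0.20 to 0.08). Without the 2 Adipoq cells, an alternative added after the data were seen, the ratios were 0.25 (0.08 to 0.42) in ND and -0.68 (-0.85 to -0.51) in HFD. The direction thus differed between the libraries once these cells were left out.

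No other ligand, nor Vcam1, had a ratio whose interval lay wholly above 0 in either library. Ackr3 was lower in both libraries, with 266 against 409 UPM in ND and 164 against 292 UPM in HFD, log2 ratios of -0.62 (-0.79 to -0.45) and -0.83 (-1.03 to -0.63). On thinned cells the Ackr3 ratios were -0.13 (-1.91 to 0.99) in ND and -0.41 (-1.99 to 0.63) in HFD, with intervals that reached 0. Kitl was 18.4 against 16.9 UPM in ND and 19.3 against 23.4 UPM in HFD. With the 2 Adipoq cells left out, Kitl was 4.05 against 16.9 UPM and 11.1 against 23.4 UPM, ratios of -1.94 (-3.74 to -0.76) and -1.03 (-1.92 to -0.32). Vcam1 had a ratio of 0.27 (-0.14 to 0.66) in ND and -0.56 (-0.95 to -0.20) in HFD. Lepr-positive cells were deeper, with medians of 11615 against 10267 UMIs in ND and 10519 against 9356 in HFD, and a cell without a Lepr UMI may have missed it at this depth. Cxcr4 was also higher in Lepr-positive ND cells, at 48.8 against 23.2 UPM, a ratio of 1.08 (0.57 to 1.57), and in HFD it was 20.0 against 15.8 UPM, a ratio of 0.36 (-0.32 to 0.96). The sub-cluster led by neutrophil genes held 56 Lepr and 63 Cxcr4 UMIs in ND.

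Granulocyte-monocyte progenitor-like cells, the blood class with most Kit and Vcam1, were also divided into sub-clusters, named only by their leading genes. Kit was 67.5 UPM in ND and 98.9 UPM in HFD in cells led by Pf4 and Ctla2a together with immunoglobulin and globin transcripts (70 ND and 99 HFD cells). These cells also held the Angpt1 of the class, with 89.8 UPM (74.0 to 108) in ND and 107 UPM (89.6 to 127) in HFD, where the other 4 sub-clusters had 0.28 to 8.02 UPM over both libraries. Car1 and Car2, carbonic anhydrases of erythroid precursors, led cells with Kit at 81.1 UPM in ND and 67.4 UPM in HFD (34 and 9 cells) and no Vcam1 UMI, so that the order of these sub-clusters differed between the libraries, with overlapping intervals in both. Vcam1 was highest in the granulocytic sub-clusters, with 198 UPM (179 to 217) in ND and 185 UPM (163 to 209) in HFD in cells led by Camp and Ngp, and with 95.7 and 160 UPM in cells led by the eosinophil granule genes Prg2 and Epx. In the Prg2 and Epx cells, 1 cell held 44 of the 106 ND UMIs and 1 cell 70 of the 182 HFD UMIs. In cells led by Irf8 and Ms4a6c, genes of monocytes and their precursors, Vcam1 was 0.37 UPM. Further along the neutrophil series Vcam1 was 39.3 and 30.8 UPM in the deeper immature neutrophil-like cluster and 3.9 and 5.3 UPM in the other one.

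For the comparison of diets, which asks whether niche factors and receptors differed after 12 weeks of HFD, the log2 ratio of the HFD to the ND level was taken with 0.5 added to each count. A pair of gene and class was called when both libraries together gave 20 UMIs or more, with a ratio of at least 1.5-fold and a 95% counting interval that did not reach 0 on the log2 scale. Of 160 pairs of a member and a named class, 61 had enough UMIs and 15 were called, 8 higher and 7 lower in HFD, which is 24.6%. Over all genes in the same classes 7.54% of pairs were called, 3.11% higher and 4.42% lower in HFD. Why the share was higher among the members was not tested, and a call compares these 2 libraries and not the diets. Without the cell with most UMIs in each library, 11 of the 15 were still called.

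Most pairs in the main class of a ligand or receptor were not called. The log2 ratio of Cxcl12 was 0.03 (-0.08 to 0.13) in endothelial-like and 0.02 (-0.07 to 0.11) in mesenchymal-like cells, and that of Kitl was 0.28 (0.08 to 0.48) in endothelial-like cells. Kitl in mesenchymal-like cells was at 0.38 (-0.01 to 0.78), and at 0.61 (0.19 to 1.06) and past the limits of a call without the top cell of each library, which was the Adipoq cell. Ackr3 in mesenchymal-like cells had -0.49 (-0.58 to -0.39), under the limit of 1.5-fold. Lepr there had -0.08 (-0.31 to 0.16), Angpt1 -0.14 (-0.48 to 0.20) and Il7, from 28 and 27 UMIs, -0.59 (-1.41 to 0.23). Il7 and Angpt1 had their highest levels in other classes, where they were not called either. Il7 was 6.93 UPM in ND and 19.0 UPM in HFD in endothelial-like cells, from few UMIs. Angpt1 was 79.1 and 107 UPM in basophil/mast-like cells. Vcam1 had 0.31 (0.13 to 0.49) in granulocyte-monocyte progenitor-like cells. Il7r was at -0.06 (-0.25 to 0.12) in T-like and 0.11 (-0.04 to 0.25) in B precursor-like cells, and Kit at 0.14 (-0.10 to 0.38) in granulocyte-monocyte progenitor-like cells. Exceptions among main classes were Vcam1 in endothelial-like cells and Kit in basophil/mast-like cells, each given with the calls. These intervals bound the difference between the libraries but do not show that diets are alike.

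**Figure D4:**
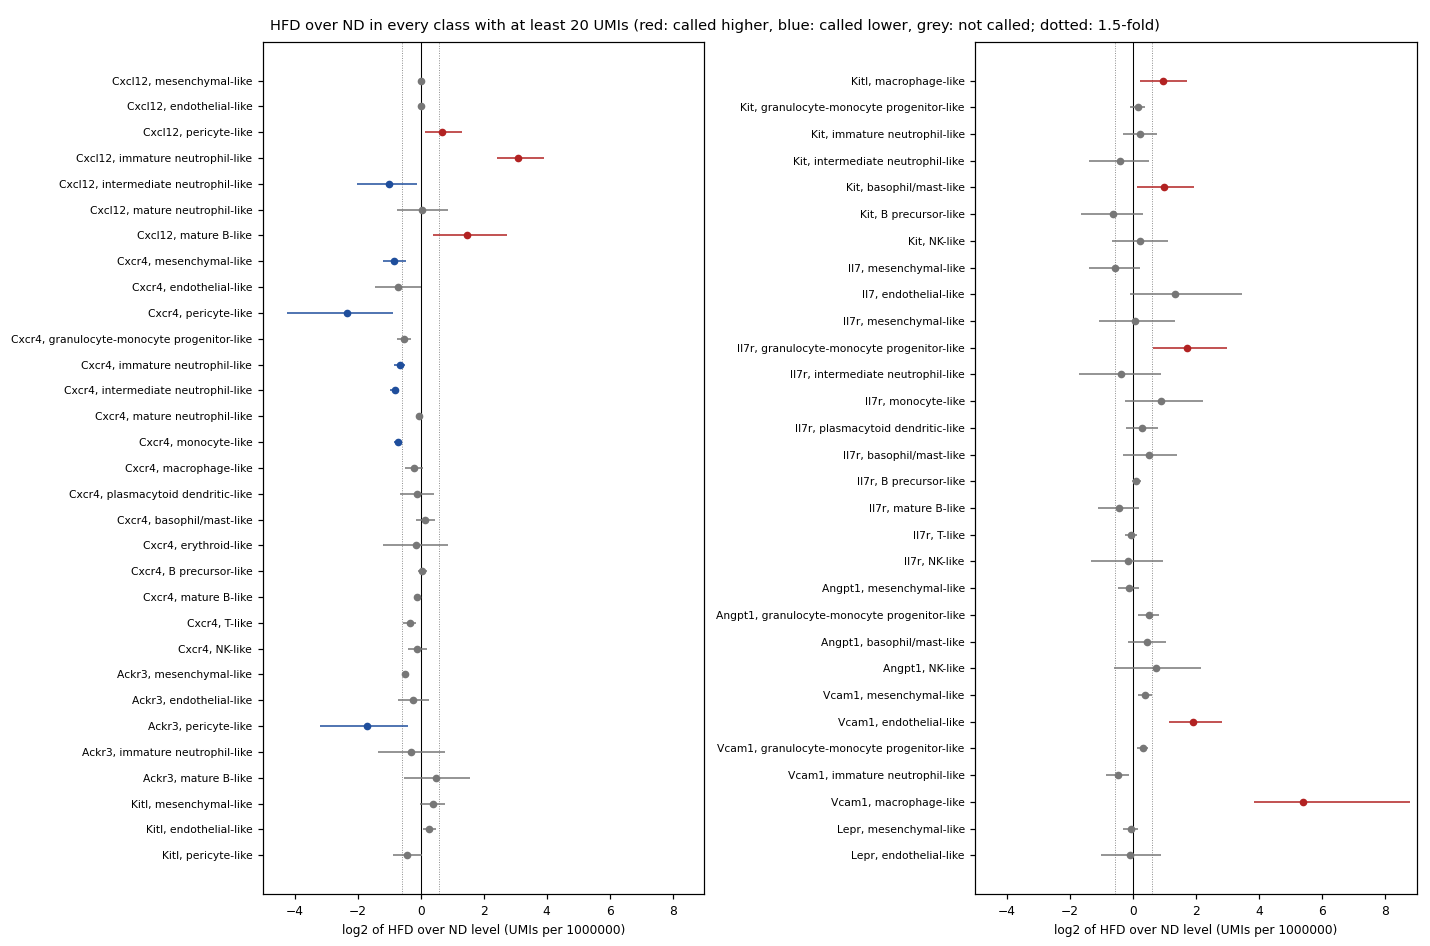
Log2 ratio of the HFD to the ND level (x axes) for the 61 pairs of gene and class with at least 20 UMIs (y axes), with 95% counting intervals and dotted lines at 1.5-fold. The 8 red points were called higher in HFD, the 7 blue points lower, and the grey points were not called, among them Cxcl12 in endothelial-like and mesenchymal-like cells at 0.03 and 0.02.

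Cxcr4 accounted for 5 of the 7 lower calls. It was lower in HFD in 14 of the 16 classes, with the interval wholly below 0 in 8 of them, both counts including mesenchymal-like and pericyte-like cells. The same counts were not made for all genes. The median ratio over all genes was -0.18 in intermediate neutrophil-like, -0.03 in immature neutrophil-like and 0.05 in monocyte-like cells. Among blood classes the calls were monocyte-like cells with -0.71 (-0.83 to -0.59), intermediate neutrophil-like cells with -0.82 (-0.96 to -0.68) and immature neutrophil-like cells with -0.66 (-0.83 to -0.49). Mature neutrophil-like, mature B-like and B precursor-like cells had ratios of -0.05 (-0.12 to 0.03), -0.11 (-0.21 to -0.0021) and 0.06 (-0.07 to 0.19).

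The makeup of 2 of these classes moved with the result. Monocyte-like cells comprised a cluster led by Ccl2 and Wfdc17 with 112 ND and 34 HFD cells, in which Cxcr4 was 642 UPM in ND and 685 in HFD, and a larger cluster with 249 and 294 cells, in which it was 213 and 161 UPM, a ratio of -0.40 (-0.56 to -0.25). Intermediate neutrophil-like cells likewise held a cluster of 228 ND and 19 HFD cells with 424 and 541 UPM and another of 366 and 508 cells with 177 and 141 UPM, a ratio of -0.33 (-0.50 to -0.16). Within these clusters no ratio passed 1.5-fold. In immature neutrophil-like cells the ratios were -0.50 (-0.74 to -0.27) and -0.82 (-1.09 to -0.57) in the 2 clusters, so that Cxcr4 was lower in each.

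**Figure D5:**
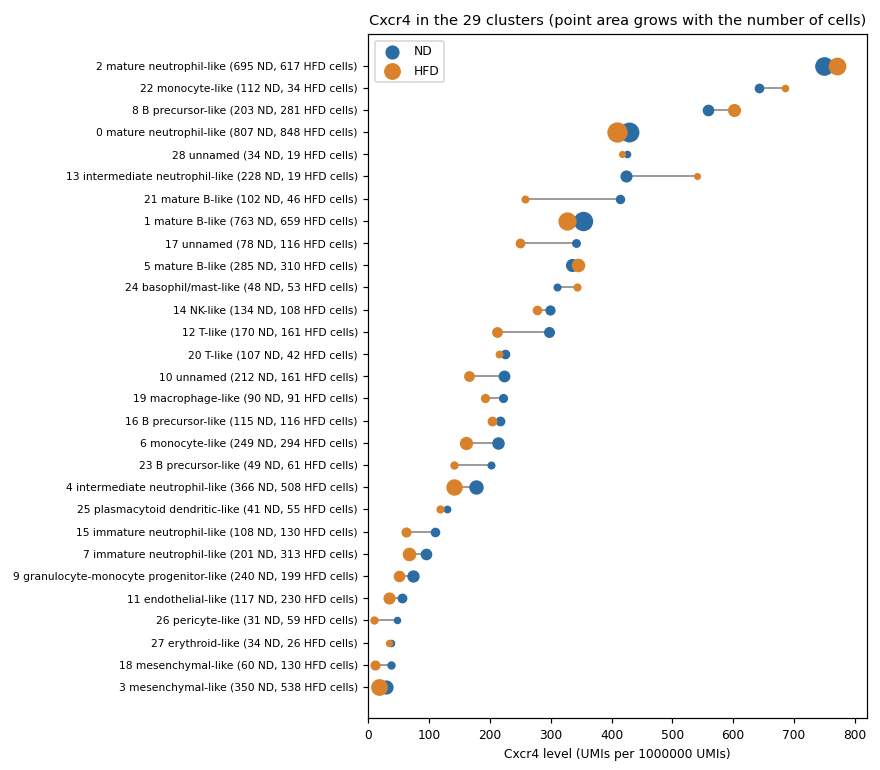
Cxcr4 level (x axis, UMIs per 1000000 UMIs) in each of the 29 clusters (y axis) in ND and HFD, with point area growing with the number of cells. The smaller monocyte-like cluster (112 and 34 cells) and the intermediate neutrophil-like cluster with 228 and 19 cells lie at high Cxcr4 in both libraries (642 and 685, 424 and 541 UPM).

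In stromal classes Cxcr4 was called lower in mesenchymal-like cells, with 29.8 UPM in ND and 16.7 in HFD, a ratio of -0.84 (-1.21 to -0.48), and in pericyte-like cells, with 15 and 5 UMIs, a ratio of -2.33 (-4.23 to -0.89). Neutrophil transcripts were also lower in HFD in both classes. The 7 mature neutrophil markers, all with a UMI, summed to 16422 UPM in ND and 7660 UPM in HFD within the mesenchymal-like class. In pericyte-like cells they summed to 22911 UPM (7 of 7 markers) and 18927 UPM (6 of 7, Cxcr2 at 0). Without the sub-cluster led by neutrophil genes, Cxcr4 of mesenchymal-like cells was 19.1 and 9.84 UPM, a ratio of -0.96 (-1.46 to -0.47). The part of neutrophil RNA in these calls was not tested. The pericyte-like call was lost when the cell with most UMIs was left out in each library.

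Vcam1 was called higher in endothelial-like cells, at 26.0 UPM (14.5 to 42.9) in ND and 99.4 UPM (81.7 to 120) in HFD, a ratio of 1.90 (1.15 to 2.82). In this class 7.66% of genes were called. The UMIs lay in few cells, 15 UMIs in 7 of 117 ND cells and 110 in 18 of 230 HFD cells, with 39 in 1 HFD cell, and without the top cells the ratio was 1.958 (1.02 to 3.21). The 7 mesenchymal markers summed to 111 UPM in this class in ND, with Pdgfra and Prrx1 at 0, and to 129 UPM in HFD, with Pdgfra at 0. The Vcam1 call in macrophage-like cells, a ratio of 5.40, was lost without the HFD cell that held 82 UMIs.

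Among the mesenchymal-like sub-clusters, Vcam1 was higher in HFD in the Ccl11/Col15a1 fibroblast-like cells, with 69.8 and 140 UPM and a ratio of 1.00 (0.63 to 1.40), and lower in tenocyte-like cells, with 52.4 and 23.1 UPM and a ratio of -1.17 (-1.87 to -0.52). Over the whole mesenchymal-like class it was 0.37 (0.15 to 0.59). Ackr3 was called lower in the same fibroblast-like cells, from 373 to 198 UPM, a ratio of -0.91 (-1.12 to -0.70), while the Pi16/Dpp4 fibroblast-like cells that had most of it were at 860 and 832 UPM. Cxcl12 was 1072 UPM in ND and 733 UPM in HFD in the Ccl11/Col15a1 fibroblast-like cells, which contain the Adipoq cell of each library. Further calls were Cxcr4 lower in the Ccl11/Col15a1 fibroblast-like (30 and 10 UMIs, -2.24) and osteogenic-like cells (19 and 8 UMIs, -2.19). Lepr was called lower in the sub-cluster led by neutrophil genes (56 and 12 UMIs, -1.73). In the shallow unnamed sub-cluster Vcam1 was called lower (22 and 8 UMIs, -2.71) and Cxcl12 higher (46 and 242 UMIs, 1.08). Of these 242 HFD Cxcl12 UMIs, 178 lay in 1 cell, and the ratio without that cell was not computed. In the class as a whole 8.74% of genes were called, and the share of all genes within a sub-cluster was not computed.

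The remaining calls rested on few UMIs. Kitl in macrophage-like cells had 26 and 41 UMIs, a ratio of 0.94 (0.20 to 1.72), and was called in 7 of 11 alternatives, with 0.33 on thinned cells. The mesenchymal markers summed there to 17.9 UPM in ND (Pdgfra and Prrx1 at 0) and 133 UPM in HFD, the endothelial ones to 0.814 and 2.99 UPM with Pecam1, Cdh5, Cldn5 and Kdr at 0 in both, and their part in the call was not tested. Kit in basophil/mast-like cells had 17 UMIs in 6 of 48 ND cells and 34 UMIs in 8 of 53 HFD cells, a ratio of 0.99 (0.13 to 1.94), and was -0.99 when cells were classed by a marker gate. Il7r in granulocyte-monocyte progenitor-like cells had 10 and 24 UMIs, a ratio of 1.71 (0.63 to 2.98) that became -0.43 on thinned cells. Over the class its ND level of 1.41 UPM was no higher than the 1.54 UPM of mature neutrophil-like cells. All 10 ND UMIs lay in the sub-cluster led by Pf4 and Ctla2a, at 7.95 UPM (3.81 to 14.6). In HFD 18 of the 24 UMIs lay there, at 14.6 UPM (8.65 to 23.1). This sub-cluster had 70 ND and 99 HFD cells, and the part of this makeup was not tested. Cxcl12 in pericyte-like cells had 34 and 99 UMIs, a ratio of 0.69 (0.13 to 1.31), and Ackr3 there had 15 and 8 UMIs, a ratio of -1.70 (-3.19 to -0.41) that was lost without the top cells. In pericyte-like cells the endothelial markers summed to 143 UPM in ND and 51.5 UPM in HFD (Emcn at 0), and the mesenchymal markers to 282 UPM (Pdgfra and Lum at 0) and 337 UPM, and their part was not tested.

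Cxcl12 was also called in 3 blood classes that held few of its UMIs. In immature neutrophil-like cells it was 2.87 UPM in ND and 25.1 UPM in HFD, a ratio of 3.09 (2.43 to 3.91). Of the 193 HFD UMIs, 170 lay in 12 of the 443 cells that held at least 20 UMIs of mesenchymal or endothelial markers, and of the 18 ND UMIs, 12 lay in the 5 such cells. In the remaining cells Cxcl12 was 0.98 UPM in ND and 3.08 UPM in HFD. The 7 mesenchymal markers summed to 253 UPM in ND and 361 UPM in HFD in this class, none at 0. The 6 endothelial markers summed to 7.33 UPM in ND, with Emcn at 0, and to 10.8 UPM in HFD, with none at 0, and the part of stromal RNA or doublets was not tested. In intermediate neutrophil-like cells the ratio of -1.01 (-2.03 to -0.12) became 1.15 without the top cells, since 27 of the 33 ND UMIs were in 1 cell. Mature B-like cells had 10 and 25 UMIs, at most 2 in a cell, a ratio of 1.47 (0.40 to 2.73). The mesenchymal markers summed there to 51.1 UPM in ND and 130 UPM in HFD, the endothelial ones to 53.0 UPM (Cldn5 and Kdr at 0) and 64.0 UPM, and their part was not tested. In cells with fewer than 20 UMIs of either marker list, Cxcl12 was 2.15 UPM in ND and 5.86 UPM in HFD in mature B-like cells. Intermediate neutrophil-like cells had 1.32 and 3.27 UPM by this measure. Mature neutrophil-like cells, used as the measure of free RNA, had 5.39 and 5.62 UPM.

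Partner genes of the same pathways were counted by the same rule over the 16 classes, and are to be read against the 7.54% of all pairs called, among which lower calls also prevailed. Of 128 measured pairs of the CXCL12 axis (G-protein, arrestin, kinase and alternative ligand genes, with Cd74 and its ligand Mif), 1 was called higher and 13 lower in HFD, which is 10.9%. Its lower calls were Cd74 or Mif, repeated across classes, apart from Arrb2 and Rgs18 in mesenchymal-like and Cxcl14 in immature neutrophil-like cells. The lists of KIT signaling (137 pairs, 5 higher and 11 lower, 11.7%), IL-7 signaling (118, 5 and 3, 6.78%) and angiopoietin and leptin signaling (72, 5 and 2, 9.72%) were mixed. The lower KIT calls also repeated a gene, Mmp9, a mature neutrophil marker. It was called lower in T-like, basophil/mast-like, macrophage-like, mature B-like and pericyte-like cells, among others, and higher in endothelial-like cells. Integrins and adhesion molecules that pair with VCAM1 gave 1 higher and 16 lower calls of 139, or 12.2%, and other blood cytokine receptors 4 and 17 of 142, or 14.8%. Of the 16 lower adhesion calls, 4 were in intermediate neutrophil-like cells, where over all genes 953 were called lower and 103 higher. Other stromal niche factors had 15 and 18 of 130, or 25.4%, and transcription factors of CXCL12-abundant reticular cells 1 and 7 of 76, or 10.5%.

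In mesenchymal-like cells the lower calls of these lists were largely leukocyte genes. Among 10 measured adhesion genes 4 were lower, among them the integrin chains Itga4 (-1.25, -1.98 to -0.57) and Itgb2 (-1.10, -1.51 to -0.70) and the adhesion ligand Selplg (-0.78, -1.18 to -0.39), and the median of the list was -0.42 against 0.05 over all genes. Among 13 blood receptors, Csf1r, Csf2ra, Csf2rb, Csf3r and Il6ra were lower and Ptprz1 (1.22) and Sdc3 (0.86) higher. The lower genes fell as the neutrophil markers given above did, and that part was not tested. Csf1r is here a marker of macrophage-like and monocyte-like cells (911 and 177 UPM), whose markers were not summed in mesenchymal-like cells. Of 22 stromal niche factors, osteopontin Spp1 (368 UPM in ND and 2307 in HFD, 2.65) and pleiotrophin Ptn (389 and 586 UPM, 0.59) were higher, and the chemokine Ccl19 (82.0 and 46.0 UPM, -0.83) and Lif (-1.17) lower. Spp1 is a leading gene of the osteogenic-like and chondrocyte-like sub-clusters, which had 59 and 15 cells of 410 in ND and 128 and 53 of 668 in HFD, and the part of this makeup was not tested. None of the 9 measured transcription factors was called, with Ebf1 at -0.11 (-0.18 to -0.04) and Prrx1 at 0.00 (-0.08 to 0.08).

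In endothelial-like cells the niche factors called were Bmp4 (1.42, 0.32 to 2.91), Ptn (1.34, 0.24 to 2.84) and Spp1 (2.47, 0.76 to 5.88), each with 2 to 7 ND UMIs. Spp1 was also called higher in macrophage-like (3.09), NK-like (1.57), mature B-like (1.11) and mature neutrophil-like cells (0.75), the last of these being the class used as a measure of free RNA. Of the angiopoietin list 1 gene was called, Angpt2, the TIE2 ligand that opposes ANGPT1, at 13.9 UPM in ND and 42.5 UPM in HFD (1.54, 0.52 to 2.91). Cd74, a receptor of the cytokine MIF, was lower there, at 753 and 241 UPM (-1.64, -1.87 to -1.42). It is also a leading gene of the mature B-like clusters, and the 7 mature B markers summed in endothelial-like cells to 442 UPM in ND (Cr2 at 0) and 184 UPM in HFD (Fcer2a and Cr2 at 0), a part that was not tested. B precursor-like cells had no called gene of the CXCL12, IL-7 or adhesion lists, and Il2rg, the chain that pairs with IL7R, was at -0.04 there and at 0.08 in T-like cells.

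Genes whose levels over the 32 points of class and library were most like each member were ranked by Pearson's r on log2(UPM + 10) among 11881 genes with at least 200 UMIs. These points share libraries and classes and are no independent replicates, so the values are descriptions. Nearest to Cxcl12 were Lama4 (0.98), Wwtr1 (0.98) and Epha4 (0.98), to Ackr3 Sulf1, Fhl1 and Nectin3 (each 0.98), to Lepr Nid1 and Col15a1 (0.99 each) and Arhgap28 (0.98), and to Kitl Nes, Hrct1 and Cav1 (0.97 each). Il7, which with 41 UMIs in ND and 53 in HFD was itself under the minimum of 200 UMIs, was nearest to Clic5 (0.94), Cdh13 and Igfbp3 (0.93 each). Cxcr4 was nearest to Ptk2b (0.91), Arhgap45 (0.90) and Arhgap15 (0.89), and Il7r to Jakmip1 (0.84), Rab3ip (0.81) and Tespa1 (0.80). Kit went with Cst7, Krt18 (0.82 each) and the granule enzyme Mpo (0.78), Angpt1 with Itga2b (0.88), Rab27b and Scin (0.85 each), and Vcam1, the least tightly matched, with Ptgs1 (0.76), Retsat (0.75) and Cd34 (0.73).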

How the data were processed

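Transcripts of single periosteal cells were counted in droplets. The deposited values are raw counts, whole numbers of UMIs per gene and barcode, which the authors made with Cell Ranger 6.0.1 on the mm10 genome, per the submitters' processing notes. Positions are those of RefSeq for GRCm38 (mm10). Barcodes with more than 500 and fewer than 8000 genes and under 20% mitochondrial UMIs were kept, 55 ND and 51 HFD of them with under 1000 UMIs. Cells were clustered in Seurat 5.3.0 (SCTransform 0.4.2 with cell cycle scores regressed, 30 principal components, resolution 0.5) without the 10 members, of which 8 were among the 3000 variable genes. Clusters were named from marker lists, with naming limits set after the clusters were seen. Scrublet marked 10 ND and 11 HFD cells, too few to count as working, so doublets were kept, and removal of the top 5% of scores was an alternative.

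Counts were summed per class and library. Levels and ratios carry exact Poisson and conditional binomial 95% intervals, shares Clopper-Pearson ones, and a count of 0 allows 3. The calling rule was tested on simulated counts that held counting error only. They had no clustering of UMIs in single cells and no spread between mice, so they cannot show how calls behave under either. No fit across replicates was possible with 1 pooled library per diet. The members and gene lists were chosen with earlier results of these data known. Named genes were the members, called or strongest genes of the lists, the 3 genes most like each member, and markers. Results under other settings stand at the end. Values of 1 called list gene are not reported here.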

Additional observations from a re-analysis of the deposited data

Results flagged for a closer look

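Cxcl12 moved in opposite directions between the libraries in different classes. Its log2 ratio of HFD to ND was 3.09 in immature neutrophil-like, 1.47 in mature B-like and 0.69 in pericyte-like cells, but -1.01 in intermediate neutrophil-like cells, where 27 of 33 ND UMIs were in 1 cell. The difference between these classes was not tested. The ND level in mature B-like cells, 2.15 UPM, was below the 5.39 UPM of mature neutrophil-like cells, the measure of free RNA.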

How the results depend on the processing

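No paired analysis was possible because the replicates of each diet were pooled in 1 library with no map from cells to mice, and for the same reason no replicate could be left out. The count of 15 called pairs fell to 4 with cells thinned to 1000 UMIs, to 7 with a minimum of 100 UMIs and to 8 with at least 2-fold, and was 12 to 19 in the other settings. The marker gate called 17 pairs, of which 5 were shared with the 15, and resolution 0.25 called 14, of which 10 were shared. For the called pairs, 150 of 176 alternative ratios lay within counting error of the reported one, 20 lay further off in the same direction and 6 turned, in 4 pairs: Kit in basophil/mast-like cells (-0.99 by marker gate), Il7r in granulocyte-monocyte progenitor-like cells (-0.43 thinned), Cxcr4 in pericyte-like cells (0.66 thinned) and Cxcl12 in intermediate neutrophil-like cells (1.16 with at least 200 genes, 1.24 without the top 5% of doublet scores, 1.15 without the top cells). Vcam1 in HFD cells with against without Lepr was 0.13 thinned. Vcam1 in endothelial-like cells was called in 11 of 11 alternatives (1.61 to 1.99) and Cxcr4 in monocyte-like cells in 10 of 11 (-0.76 to -0.58). Causes were not tested except where 1 cell held the UMIs. Leaving out top cells or top doublet scores was chosen after seeing the data. From 5 to 6 members were highest in a stromal class in every setting. Sums of under 20 UMIs and the unknown spread between mice limit all ratios.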
